A study of Mus musculus with 4 samples.

Results

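The transcripts of 38 cell cycle genes were followed through single cells of the mouse heart. The genes were found by symbol in the count tables, where each matched 1 gene, so that 38 of 31053 genes are described here. A cell barcode was kept with at least 1000 UMIs (unique molecular identifiers, each counting 1 captured transcript) and no more than 20% mitochondrial UMIs. This kept 21581 of 26765 barcodes (80.6%). Cells with at least 10 UMIs summed over the 38 genes are called member-rich below, and there were 1477 of them (6.84% of kept cells).

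The study compared hearts of mouse offspring whose mothers had eaten 1 of 2 diets while pregnant and lactating. In the high_fibre group (2 libraries) that diet was rich in resistant starch, a fibre that gut bacteria ferment, and in the control_diet group (2 libraries) it held little of it, as the series text describes. All offspring ate standard chow from 3 weeks of age, and hearts were taken at 6 weeks, so the offspring of both groups had been off the diets for the same time. Hearts were digested by perfusion with collagenase IV and dispase II, and cells were sorted as live, metabolically active and nucleated. Strain, sex, genotype and the number of animals in a library are not given in the sources used here, so p-values reflect no more than how these libraries differ, and part of that may be technical. Because cells were dissociated and sorted, every share below is a share of sorted cells.

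A dividing cell copies its DNA in S phase and separates the copies in mitosis. At the passage from G1 to S, E2F factors switch on genes for DNA synthesis, and from late S phase on a second wave of genes for the spindle, the kinetochore and chromosome separation is transcribed under the MMB complex and FOXM1, which act through promoter elements named CHR. Many of these promoters also hold CCAAT boxes, which NF-Y binds. In the young heart, resident macrophages, endothelial cells and fibroblasts can all divide, while most cardiomyocytes leave the cycle in the first weeks after birth. Of the 38 genes, 11 belong to the first wave (Ccne1, Ccne2, Pcna, Mcm2, Mcm3, Mcm5, Mcm6, Rrm1, Rrm2, Tyms and Tk1; called G1/S genes here) and 25 to the second (G2/M genes). Stmn1, which encodes a protein that takes microtubules apart, and Hmgb2, which encodes a chromatin protein, are high in dividing cells but are also expressed outside the cycle, and they were kept as a pair of their own.

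Promoters of both waves were searched for these elements. The sequences below are the 150 bases before the transcription start in RefSeq (build GRCm38.p6), 5′ to 3′ along the gene's strand, with matches in capitals. The motifs searched on both strands were TTTGAA and TTTAAA (CHR type), CCAAT, and TTTCCCGC, TTTGGCGC and TTTCGCGC (E2F type). TTTAAA reads the same on both strands, and no motif contains another. The first 5 genes are mitotic: Ccnb1, Cdc20 and Ube2c spread widely between the libraries' macrophages, and Cdk1 and Mki67 are usual marks of division. Mcm5 and Rrm2 stand for DNA synthesis, and the Rrm2 window holds a CCAAT match alone.
Ccnb1, chr13:100786487-100786636, minus strand: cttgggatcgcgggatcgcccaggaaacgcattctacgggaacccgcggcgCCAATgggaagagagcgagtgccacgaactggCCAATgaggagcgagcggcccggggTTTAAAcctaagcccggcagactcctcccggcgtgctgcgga
Cdc20, chr4:118437344-118437493, minus strand: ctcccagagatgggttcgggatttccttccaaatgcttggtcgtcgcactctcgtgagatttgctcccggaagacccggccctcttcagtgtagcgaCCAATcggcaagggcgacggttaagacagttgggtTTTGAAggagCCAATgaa
Ube2c, chr2:164769779-164769928, plus strand: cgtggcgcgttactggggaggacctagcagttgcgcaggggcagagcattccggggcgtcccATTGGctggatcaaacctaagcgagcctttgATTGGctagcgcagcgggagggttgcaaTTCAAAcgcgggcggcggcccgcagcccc
Cdk1, chr10:69352913-69353062, minus strand: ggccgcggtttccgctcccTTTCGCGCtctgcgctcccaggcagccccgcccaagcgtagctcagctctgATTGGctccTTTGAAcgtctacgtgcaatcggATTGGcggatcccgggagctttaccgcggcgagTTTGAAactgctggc
Mki67, chr7:135716380-135716529, minus strand: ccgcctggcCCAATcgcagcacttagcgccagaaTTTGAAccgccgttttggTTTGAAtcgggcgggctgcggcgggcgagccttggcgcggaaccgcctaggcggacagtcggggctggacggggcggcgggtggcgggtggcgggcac
Mcm5, chr8:75109359-75109508, plus strand: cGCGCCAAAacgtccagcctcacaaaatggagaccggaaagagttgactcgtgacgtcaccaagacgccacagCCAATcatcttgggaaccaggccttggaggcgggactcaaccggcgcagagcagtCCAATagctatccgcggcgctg
Rrm2, chr12:24708104-24708253, plus strand: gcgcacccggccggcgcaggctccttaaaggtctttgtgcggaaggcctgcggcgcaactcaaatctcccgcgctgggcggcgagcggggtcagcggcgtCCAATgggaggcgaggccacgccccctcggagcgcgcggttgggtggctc
Counting back from the start, the first base of the CHR-type match lies at -42 in Ccnb1, -18 in Cdc20 and -29 in Ube2c, each with 2 CCAAT matches in the same window. Over windows of 250 bases before to 50 bases after the start, 33 promoters of 32 members were matched. A CHR-type match was in 81.8% of the 22 promoters of G2/M members, in 50% of the 10 of G1/S members and in 27.6% of 32851 promoters of all genes. CCAAT was in 81.8%, 70% and 37.4% of the same 3 sets, and an E2F-type match in 4.55%, 30% and 1.84%. A match is a description of letters, and no binding was measured here.

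Cells were assigned by UMIs of a few marker genes that are not among the 38. The gates were C1qa of at least 3 for macrophages (3159 cells), Pecam1 and Cdh5 together of at least 3 with 1 or more of Cdh5 for endothelial cells (6791 cells), and Col1a1 and Dcn together of at least 5 for fibroblasts (6662 cells). Cd79a of at least 2 marked B cells (873 cells) and Cd3e of at least 1 marked T cells (414 cells). A further 1115 cells passed several gates and were held apart, and 2567 passed none. Each gate held its own further markers, with 3 or more UMIs of them in 99.3% to 99.9% of cells. The 7 macrophage markers beyond C1qa (C1qb, C1qc, Csf1r, Adgre1, Cd68, Mrc1 and Fcgr1) summed to 12200 to 13906 CPM (counts-per-million units: UMIs of the genes relative to all UMIs of the gate and library) in the macrophage gate, against 28.2 to 76.8 in the endothelial gate. Fibroblast transcripts were spread through other cells: 46.9% of macrophages and 13.6% of endothelial cells had 3 or more UMIs of fibroblast markers. Their part in the values below was not tested.

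The 4 libraries held 27577599 to 69600492 UMIs, with 2558 kept cells in control_diet 2 and 5663 to 7380 in the others. Kept cells had a median of 7507.5 to 8901 UMIs and 4.61% to 4.87% mitochondrial UMIs. A total of 884 barcodes occurred in 2 or more libraries and 450 in all 4. The barcodes found in all 4 had a median of 20105.5 UMIs in control_diet 2 and 614.5 to 756.5 in the others, and 27.4% of the kept barcodes of control_diet 2 were shared, against 1.38% to 1.98% elsewhere. When each shared barcode was counted only where it had the most UMIs, 163 kept barcodes were removed, 9 of them in control_diet 2. The number of member-rich cells was then 1471 and their share among macrophages 26.2% ± 5.16 (SD, n = 4 libraries). Of all member-rich cells, 31 of 430, 57 of 518, 25 of 362 and 125 of 167 were shared barcodes. This count leaves control_diet 2 almost unchanged, so it cannot show what sharing did there. The results below are given with all kept barcodes. Simulated doublets marked 2.36% to 7.23% of barcodes, and among the member-rich cells 63 of 430, 91 of 518, 80 of 362 and 17 of 167 were marked. Libraries are named throughout in the order high_fibre 1, high_fibre 2, control_diet 1 and control_diet 2.

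Macrophages held 799 of the 1477 member-rich cells (54.1%), more than any other gate. Member-rich cells made up 24.8%, 28.0%, 19.4% and 31.7% of macrophages (mean 26.0% ± 5.20, SD, n = 4). The exact 95% binomial intervals of these 4 shares, which cover counting error only, were 22.1% to 27.7%, 25.4% to 30.6%, 16.7% to 22.5% and 26.2% to 37.7%. The libraries therefore differed among themselves by more than counting error, control_diet 1 being the lowest and control_diet 2 the highest. T cells followed at 12%, 13.7%, 19.2% and 8.82% (13.4% ± 4.35; 60 cells). B cells stood at 6.49%, 1.23%, 5.78% and 3.03% (4.13% ± 2.44; 40 cells), and endothelial cells at 2.48%, 1.81%, 2.94% and 2.79% (2.51% ± 0.50; 165 cells). Fibroblasts were lowest at 1.74%, 1.35%, 1.35% and 2.49% (1.73% ± 0.54; 104 cells). The macrophage range did not meet that of any other single gate, while the ranges of endothelial cells and fibroblasts met, as did those of B cells with each of these. Cells that passed several gates had 18.2% ± 2.58 and ungated cells 4.11% ± 0.57.

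**Figure D1:**
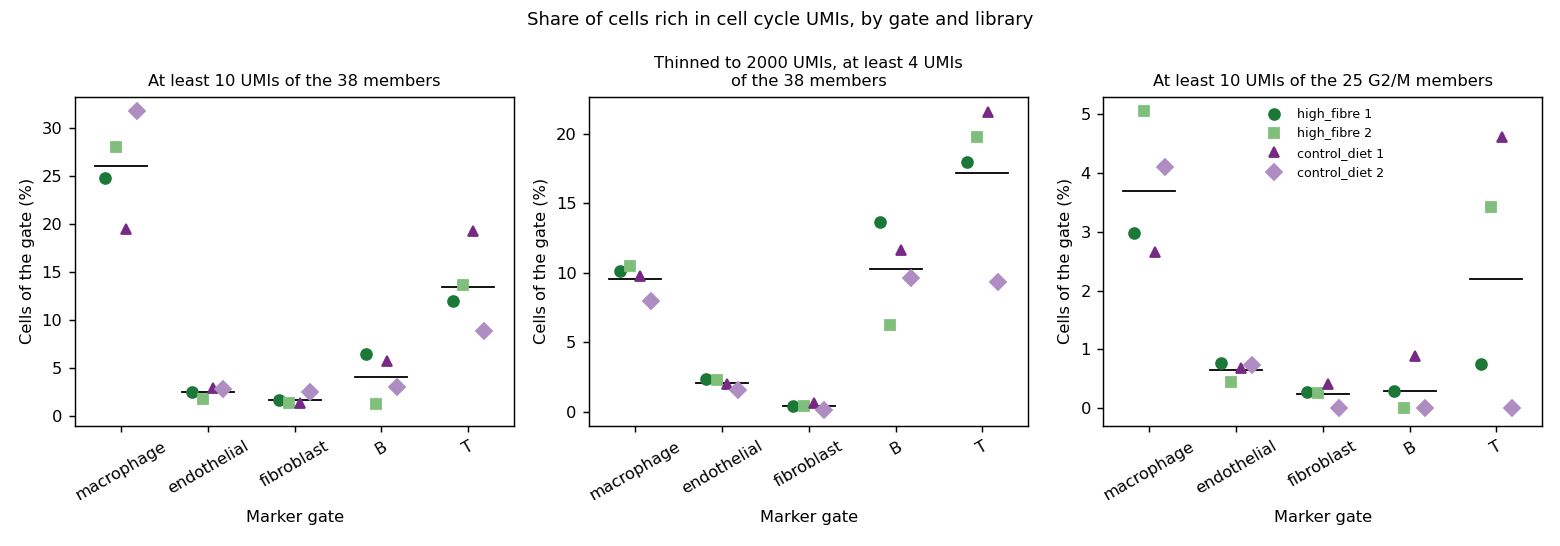
Share of cells in each gate, in percent, with at least 10 UMIs of the 38 genes (member-rich, left), with at least 4 member UMIs after thinning to 2000 UMIs (middle) and with at least 10 UMIs of the 25 G2/M genes (G2/M-rich, right); each point is 1 library and the bars mark the mean. Macrophages stand at 19.4% to 31.7% member-rich, above every other single gate, and at 2.66% to 5.05% G2/M-rich.

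A fixed number of UMIs is easier to reach in a deeper cell, and the gates differed in depth: the median was 10353 UMIs in macrophages, 5300 in endothelial cells, 12893.5 in fibroblasts, 4149 in B cells and 5782 in T cells. Among macrophages the member-rich share was 2.08% at 1000 to 4999 UMIs, 10.7% at 5000 to 9999, 31.9% at 10000 to 19999 and 80.5% at 20000 or more. Cells were therefore also thinned to 2000 UMIs each, with at least 4 member UMIs required, which left out 1193 shallower cells (92 macrophages, 254 endothelial cells, 100 fibroblasts, 130 B cells and 49 T cells among them). At that depth 9.58% ± 1.11 of macrophages, 17.2% ± 5.41 of T cells, 10.3% ± 3.16 of B cells, 2.07% ± 0.34 of endothelial cells and 0.42% ± 0.21 of fibroblasts passed. At equal depth the lead of macrophages over T cells was thus absent in every library. Over B cells it was absent in the mean, but in high_fibre 2 macrophages stood at 10.5% and B cells at 6.25%. In the other libraries B cells stood higher than macrophages. Macrophages still stood above endothelial cells and fibroblasts in every library, at 7.98% or more against at most 2.35% and 0.68%.

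Having 10 member UMIs was not the same as dividing. Of the 1477 member-rich cells, 237 (16.0%) had 10 UMIs of the G2/M genes alone, and 138 more (9.34%) had 10 of the G1/S genes. Another 275 (18.6%) reached 10 through Stmn1 and Hmgb2 alone, and 827 (56.0%) through no single group. In 450 of the 1477 (30.5%) there was at most 1 UMI of the G2/M genes, and Stmn1 and Hmgb2 gave 38.2% of all member UMIs in these 1477 cells. The label of dividing cells therefore does not hold for the member-rich cells as a whole. On either side of the limit, 351 cells had 9 member UMIs and 276 had 10, with Mki67 detected in 4.56% and 3.99% of them.

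**Figure D2:**
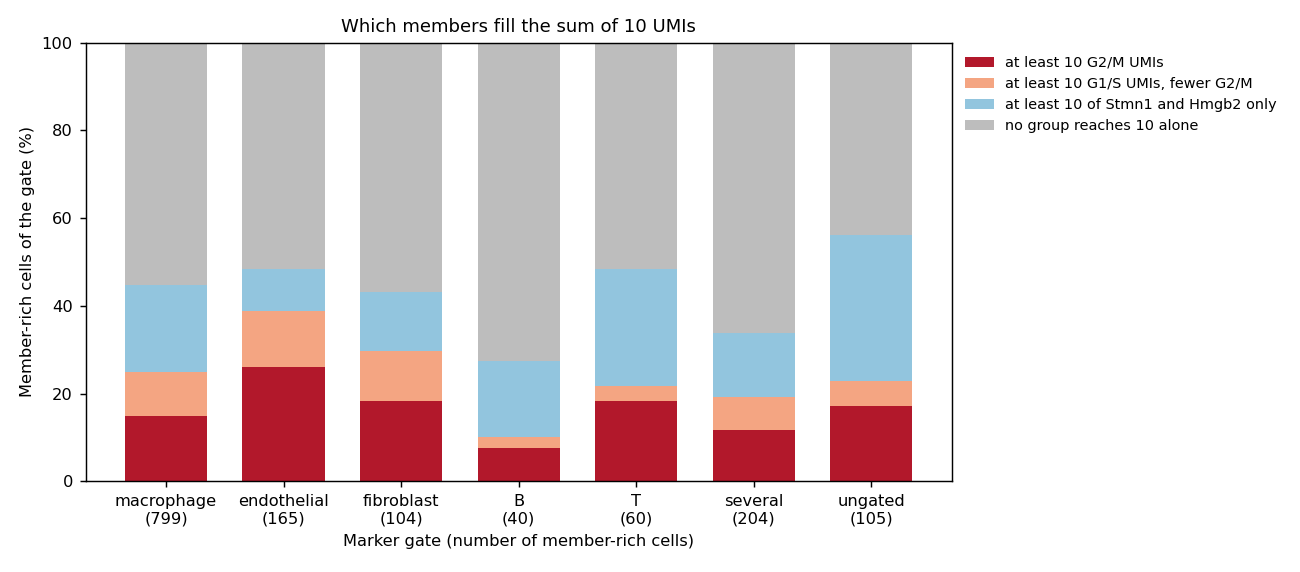
Member-rich cells of each gate in percent, with their number under each bar, split by which gene group alone reached 10 UMIs (G2/M genes; G1/S genes but not G2/M genes; Stmn1 and Hmgb2 only; none alone). In every gate most member-rich cells lie outside the G2/M group, which holds 119 of the 799 in macrophages and 43 of the 165 in endothelial cells.

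A second class, the 237 cells with at least 10 UMIs of the 25 G2/M genes (1.10% of kept cells), was defined after the data were seen and is called G2/M-rich. Most of these cells lay far above the limit: 14318 kept cells had no G2/M UMI, 6698 had 1 to 4, 328 had 5 to 9, 55 had 10 to 19, 21 had 20 to 29 and 161 had 30 or more, up to 750. Mki67, the proliferation antigen that coats mitotic chromosomes, is among the 25 genes that chose these cells. A contrast in Mki67 was therefore partly fixed by the choice. A UMI of Mki67 was found in 88.6% of the G2/M-rich cells (median depth 19110 UMIs). It was found in 7.58% of the other member-rich cells and in 0.56% of the 20104 cells below the limit (median depth 7504 UMIs). Among fibroblasts below the limit, which were the deepest such cells at a median of 12850.5 UMIs, the share was 0.23%, and among macrophages below the limit (9442 UMIs) it was 2.80%.

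Macrophages held 119 of the 237 G2/M-rich cells (50.2%), endothelial cells 43, fibroblasts 19, T cells 11 and B cells 3, with 24 in several gates and 18 ungated. They made up 2.99%, 5.05%, 2.66% and 4.10% of macrophages (3.70% ± 1.09). The exact 95% binomial intervals of these shares ran from 2.01% to 4.26%, 3.86% to 6.46%, 1.63% to 4.08% and 2.07% to 7.23%, and each pair of them overlaps. Endothelial cells stood at 0.76%, 0.44%, 0.69% and 0.74% (0.66% ± 0.15), below macrophages in every library. Fibroblasts stood at 0.27%, 0.26% and 0.42% in the first 3 libraries and at 0 of 603 cells in control_diet 2, which allows a share of up to 0.50%. T cells had 1, 4, 6 and 0 G2/M-rich cells (2.20% ± 2.18), and 0 of 34 in control_diet 2 allows up to 8.82%, so T cells could not be told from macrophages. Thinned to 2000 UMIs, 2.99% ± 1.09 of macrophages, 3.00% ± 2.59 of T cells, 0.68% ± 0.79 of B cells, 0.59% ± 0.18 of endothelial cells and 0.17% ± 0.13 of fibroblasts had 4 or more G2/M UMIs. G2/M-rich cells had a median of 76 G2/M UMIs in macrophages (median depth 20318 UMIs), 77 in endothelial cells (14913) and 60 in fibroblasts (21727).

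In macrophages, endothelial cells, fibroblasts and T cells the UMIs of most G2/M genes lay in these few cells. The cells were chosen by UMIs of these same G2/M genes, while G1/S genes, Stmn1 and Hmgb2 took no part in the choice. High shares for G2/M genes, and their gap to the other groups, were therefore partly fixed by the choice. Among macrophages, G2/M-rich cells (3.77% of all macrophages) held a median of 89.3% of a G2/M gene's UMIs, from 25.0% for Cenpa to 99.1% for Ccna2, with 12 of 25 genes above 90%. For G1/S genes the median was 49.0%, from 24.4% for Pcna to 92.2% for Rrm2. Stmn1 stood at 69.2% and Hmgb2 at 31.3%. In endothelial cells the medians were 82.5% for G2/M and 15.9% for G1/S genes, and in fibroblasts 69.0% and 9.77%. T cells stood at 95.3% and 51.7%, with 4 of 11 G1/S genes below 50%, and in B cells 17 of 25 G2/M genes were below 50%. Among G2/M genes the lowest share was that of Cenpa, the histone variant that marks centromeres, in macrophages and T cells (29.3%), and that of Mad2l1 in endothelial cells (23.4%) and fibroblasts (7.67%). A UMI of Cenpa was found in 37.9% of macrophages, 44.6% of B cells and 39.6% of T cells, against 8.72% of endothelial cells and 6.45% of fibroblasts, the deepest of these gates. Kif23, a kinesin of the midbody, had a UMI in 22.2% of macrophages and 0.84% of fibroblasts, and 41.0% of its macrophage UMIs were in G2/M-rich cells. How much of these shares is free RNA was not tested. In B cells G2/M-rich cells held only 9.51% of G2/M UMIs, and Cenpa alone stood at 172, 174, 198 and 129 CPM there, against 305, 238, 302 and 201 for the 25 G2/M genes together. A high G2/M sum in B cells was thus largely Cenpa.

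Levels were next compared between gates on UMIs summed per gate and library, with edgeR's quasi-likelihood test on the sums and library as a block. The log2 differences rest on edgeR's own scaling (TMM), whereas printed CPM are counts over all UMIs. Ratios of printed CPM can therefore differ from the log2 differences, as they do for Tyms below. In such a sum, more dividing cells and more transcripts per dividing cell cannot be told apart. All 38 members could be tested between macrophages and endothelial cells, and 35 were higher in macrophages and 0 lower at an adjusted p under 0.05 (Benjamini-Hochberg over all genes). Most genes differ between such cell types: 76.7% of all genes were called, 38.3% higher and 38.3% lower. The median log2 difference of the members was 1.55, and of all genes -0.01. By group, 9 of 11 G1/S genes, 24 of 25 G2/M genes and both Stmn1 and Hmgb2 were higher. Tyms (-0.08), Ccne2 (0.44) and Cenpf (1.13, adjusted p = 0.074) did not pass.

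**Figure D3:**
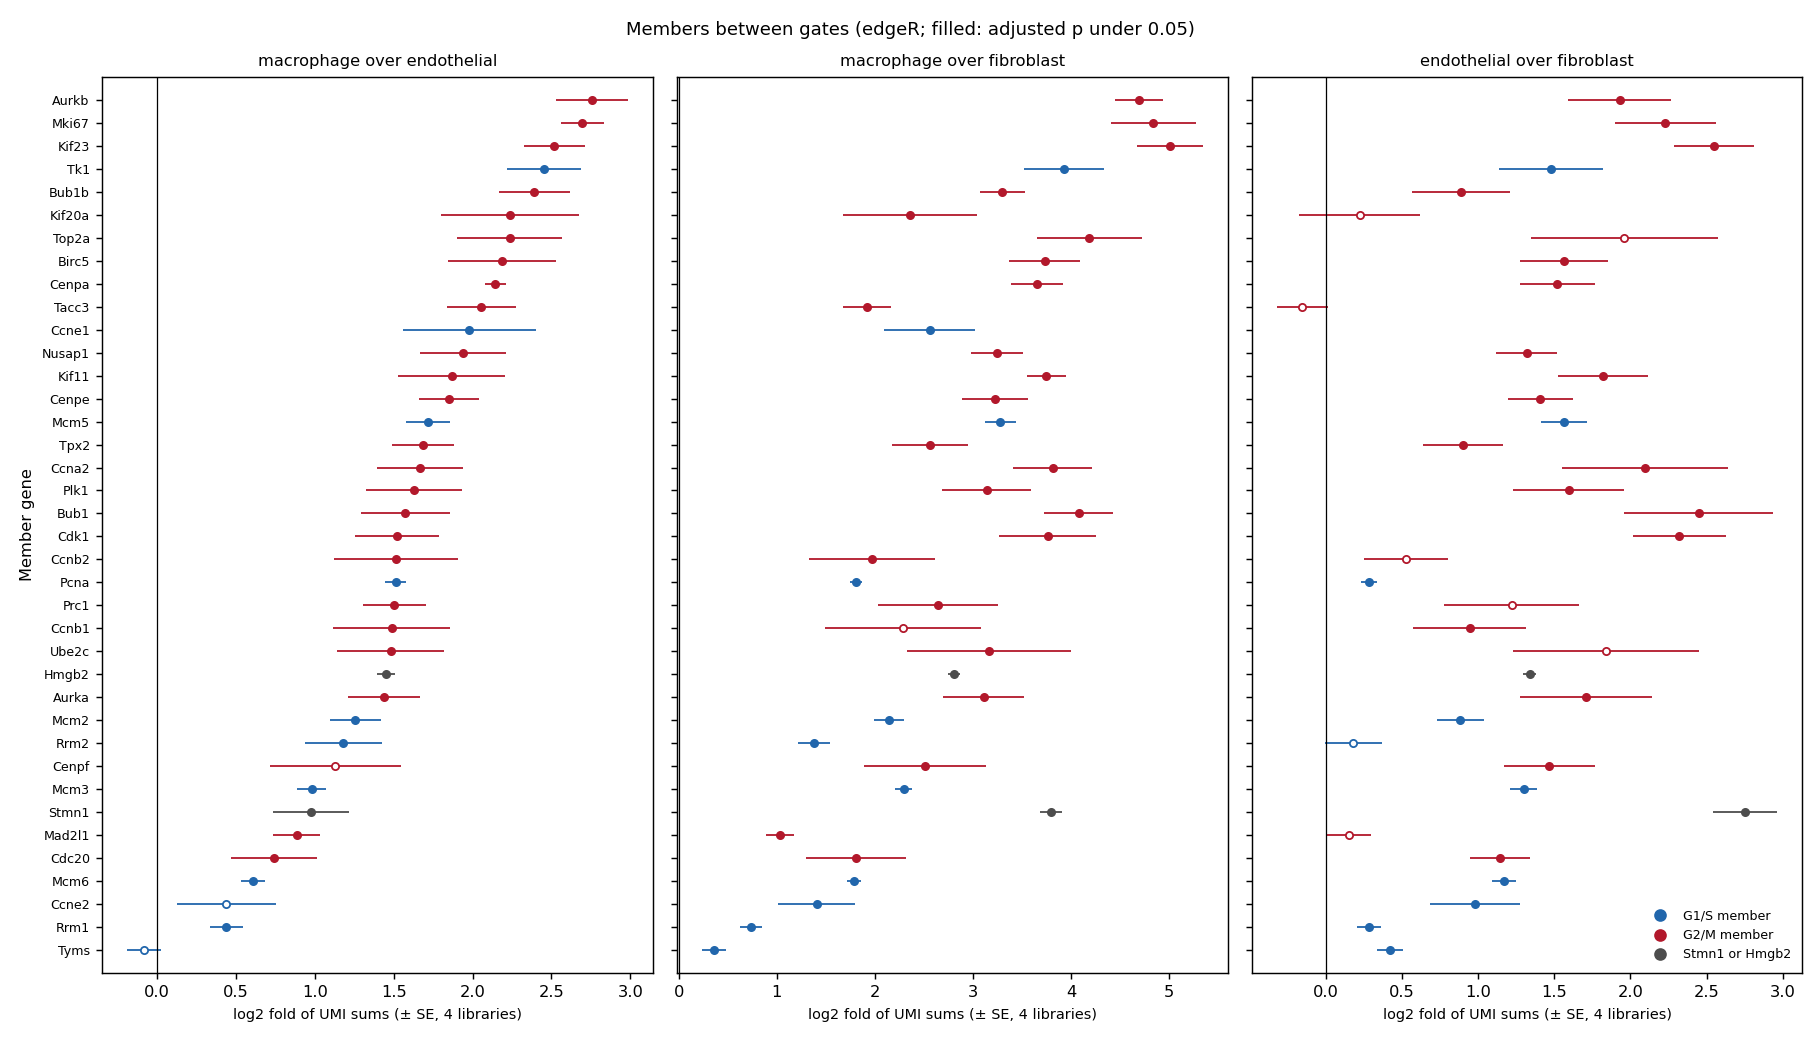
Log2 difference of each member between 2 gates, as fitted by edgeR with library as a block, with bars of 1 SE; filled points had an adjusted p under 0.05. The panels show macrophages over endothelial cells, macrophages over fibroblasts and endothelial cells over fibroblasts. In the comparison of macrophages with endothelial cells 35 of 38 members lie to the right of 0 and passed, and with fibroblasts 37 of 38.

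The most used marks of division differed widely. Mki67 stood at 49.0, 58.8, 52.1 and 39.1 CPM in macrophages, at 10.4, 8.01, 13.7 and 7.51 in endothelial cells and at 1.59, 1.67, 4.92 and 0.31 in fibroblasts. Top2a, the topoisomerase that untangles sister chromatids, stood at 45.5, 70.2, 52.7 and 46.5 in macrophages, 14.0, 8.97, 17.5 and 19.8 in endothelial cells and 4.25, 2.47, 7.47 and 0.21 in fibroblasts. For both genes the lowest macrophage library lay above the highest endothelial one. The log2 difference between macrophages and endothelial cells was 2.70 ± 0.14 (SE) for Mki67 and 2.24 ± 0.33 for Top2a in edgeR (adjusted p = 1.6e-07 and 0.0052). It was larger still against fibroblasts, at 4.84 ± 0.43 and 4.19 ± 0.54 (edgeR adjusted p = 0.00077 and 0.0036).

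Cdk1, the kinase that starts mitosis, stood at 14.1, 23.9, 23.1 and 30.6 CPM in macrophages and at 11.3, 6.97, 12.6 and 9.10 in endothelial cells. Its partner Ccnb1 (cyclin B1) varied widely, at 1.69, 4.12, 6.84 and 14.7 in macrophages against 1.75, 2.48, 3.70 and 2.39 in endothelial cells. Macrophages of high_fibre 1 lay at or below the endothelial level for Ccnb1, while those of control_diet 2 lay well above it. The edgeR log2 differences were 1.52 ± 0.27 for Cdk1 and 1.49 ± 0.37 for Ccnb1 (adjusted p = 0.0038 and 0.0069). Ccna2 (1.66 ± 0.27) and Ccnb2 (1.51 ± 0.39), the other 2 mitotic cyclins, also passed.

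Birc5 (survivin), which with Aurkb forms the chromosomal passenger complex, stood at 16.4, 40.8, 25.1 and 30.1 CPM in macrophages and 7.56, 5.12, 9.11 and 10.0 in endothelial cells. The passenger kinase Aurkb had the largest difference of all members between these gates (2.76 ± 0.23). The spindle pole kinase Aurka (1.44 ± 0.23) and the mitotic kinase Plk1 (1.63 ± 0.30) were higher in macrophages by less. The spindle checkpoint genes Bub1 (1.57 ± 0.28), Bub1b (2.39 ± 0.23) and Mad2l1 (0.88 ± 0.15) were higher too. So were the anaphase genes Cdc20 (0.74 ± 0.27, the smallest G2/M difference) and Ube2c (1.48 ± 0.34), which help to mark cyclin B1 for destruction. All differences in this paragraph passed in edgeR.

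Genes for the motors and builders of the spindle were higher in macrophages too. Kif23 (2.52 ± 0.19), Kif20a (2.24 ± 0.44) and Kif11 (1.87 ± 0.34), kinesins of the midzone and the bipolar spindle, passed in the same edgeR fit. Prc1 (1.50 ± 0.20), which bundles midzone microtubules, Tpx2 (1.69 ± 0.20), Nusap1 (1.94 ± 0.27) and Tacc3 (2.05 ± 0.22), which assemble spindle microtubules, were higher as well. Of the kinetochore genes, Cenpa (2.14 ± 0.07) and Cenpe (1.85 ± 0.19) passed and Cenpf did not.

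The G1/S genes had a median log2 difference of 1.18 and the G2/M genes of 1.69, without a test between the groups. Mcm5, a subunit of the replicative helicase, stood at 17.1, 24.3, 14.2 and 14.9 CPM in macrophages and 8.32, 6.89, 6.62 and 5.46 in endothelial cells, a log2 difference of 1.72 ± 0.14 (edgeR). Its partners Mcm2 (1.25), Mcm3 (0.98) and Mcm6 (0.61) were also higher. Pcna, the clamp that holds DNA polymerase, stood at 97.0, 102, 91.5 and 86.3 in macrophages, 44.9, 40.8, 40.7 and 42.8 in endothelial cells and 35.6, 34.7, 33.4 and 35.2 in fibroblasts. Pcna was steady over libraries within each gate, and its gates did not overlap between macrophages and the other 2.

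Among the genes that supply deoxynucleotides, Rrm2, the inducible subunit of ribonucleotide reductase, stood at 6.95, 7.45, 7.47 and 4.97 CPM in macrophages and 4.16, 2.32, 4.30 and 5.46 in endothelial cells. These ranges overlapped, with a log2 difference of 1.18 ± 0.24 (edgeR adjusted p = 0.0012). Its constant partner Rrm1 differed by 0.44 ± 0.10 and Tk1, thymidine kinase, by 2.45 ± 0.23. Tyms, thymidylate synthase, stood at 17.7, 20.9, 13.8 and 12.2 in macrophages and 21.8, 24.8, 20.5 and 21.7 in endothelial cells. Its CPM was thus lower in macrophages in every library, while the TMM-scaled log2 difference was -0.08 and did not pass. Of the E cyclins that open S phase, Ccne1 passed (1.98 ± 0.42) and Ccne2 did not.

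Stmn1 and Hmgb2 were also found in many cells outside the G2/M-rich class. Hmgb2 stood at 350, 389, 353 and 311 CPM in macrophages, 162, 167, 164 and 161 in endothelial cells and 63.8, 65.5, 66.6 and 62.2 in fibroblasts, and was detected in 80.2% of macrophages. Stmn1 stood at 159, 223, 143 and 115 in macrophages, 111, 85.0, 114 and 98.9 in endothelial cells and 13.9, 17.7, 17.8 and 9.34 in fibroblasts. The macrophage and endothelial levels of Stmn1 lay close together and both lay far above the fibroblast level. The Stmn1 difference between macrophages and endothelial cells (0.98 ± 0.24, edgeR adjusted p = 0.025) missed the threshold without high_fibre 1 (0.97, edgeR adjusted p = 0.12) and without control_diet 1 (1.05, edgeR adjusted p = 0.053).

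Against fibroblasts, 37 of 38 members were higher in macrophages (edgeR; 80.4% of all genes were called, 39.1% higher and 41.3% lower), with a median log2 difference of 2.96. Ccnb1 was the exception (2.29 ± 0.80, adjusted p = 0.053), its fibroblast values being 1.73, 0.83, 2.59 and 0.21 CPM. It passed in edgeR without control_diet 2 (1.65, adjusted p = 0.0044) and without high_fibre 1 (2.81, adjusted p = 0.046). Of the 37 members tested between endothelial cells and fibroblasts, 29 were higher in endothelial cells and 0 lower (edgeR; 79.2% of genes called, 37.9% higher and 41.3% lower), with a median of 1.34. Stmn1 (2.75 ± 0.21) led these, and Tacc3 (-0.15), Mad2l1, Rrm2, Kif20a, Ccnb2, Prc1, Ube2c and Top2a did not pass. Top2a (1.96 ± 0.61, adjusted p = 0.054) lay just outside and passed without control_diet 2, the library with no G2/M-rich fibroblast (1.55 ± 0.14, edgeR adjusted p = 4.9e-07). Ccne1 was too low to be tested.

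T cells held 11 G2/M-rich cells, with a median of 150 G2/M UMIs each, and B cells held 3, with a median of 17. Between B and T cells, 19 of 30 tested members were lower in B cells and 0 higher (edgeR; 34.8% of genes called, 16.6% higher and 18.2% lower in B cells), with a median log2 difference of -2.22. The largest were Ccnb2 (-4.37 ± 0.68), Birc5 (-4.21 ± 0.41), Ube2c (-3.91 ± 0.44) and Ccna2 (-3.86 ± 0.75). Mki67 stood at 63.7, 73.5, 94.1 and 0 CPM in T cells and 5.19, 0, 11.0 and 0 in B cells. Top2a stood at 63.7, 111, 226 and 4.10 in T cells and 31.8, 9.25, 24.6 and 12.6 in B cells. Control_diet 2, with 34 T cells and no G2/M-rich one among them, was near 0 for both genes, and the other 3 libraries carried the T cell level. Cenpa was level between the gates (0.25 ± 0.12, edgeR adjusted p = 0.12). The count of 19 fell to 5 without the library block and to 12 without control_diet 1.

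The remaining T and B cell values of the genes given in full show the same split. In T cells Cdk1 stood at 11.5, 17.2, 42.4 and 0 CPM, Birc5 at 29.3, 51.6, 84.9 and 0, and Rrm2 at 30.6, 28.2, 82.6 and 0. In B cells Cdk1 stood at 2.59, 0, 0 and 6.28, Birc5 at 3.24, 2.31, 1.83 and 3.14, and Rrm2 at 5.84, 1.16, 3.65 and 0. These mitotic and synthesis genes were highest in control_diet 1 among T cells, the library with 6 of the 11 G2/M-rich T cells. Mcm5, Pcna and Hmgb2, which are spread over more cells, were closer between the 2 types: Mcm5 stood at 12.7, 17.2, 25.2 and 12.3 in T cells and 6.48, 12.7, 14.6 and 12.6 in B cells. Pcna stood at 96.9, 98.5, 142 and 53.3 in T cells and 72.0, 55.5, 82.1 and 78.5 in B cells. Hmgb2 stood at 643, 1023, 1074 and 373 in T cells and 516, 338, 379 and 276 in B cells, and the edgeR difference did not pass (-1.14 ± 0.33, adjusted p = 0.088), though it did without high_fibre 1 (-1.42, adjusted p = 0.00023). Ccnb1 stood at 6.37, 14.1, 9.18 and 8.21 in T cells and was seen in 1 library of B cells, at 2.74. Stmn1 stood at 144, 210, 485 and 12.3 in T cells and 86.2, 38.2, 62.1 and 31.4 in B cells (-2.0 ± 0.65, edgeR adjusted p = 0.12).

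The other genes of the cycle, from lists of names set apart from the 38, followed them. Between macrophages and endothelial cells, 24 of 26 further S phase genes were higher in macrophages and 0 lower, and of 43 further G2/M genes 40 were higher and 2 lower (edgeR). The genes that govern entry into the cycle did not stand on 1 side: of 13 G1 cyclins, kinases and their regulators 5 were higher and 7 lower. Mycn, a transcription factor of growth, was lower in macrophages (-6.61) and its relative Myc higher (3.57), while Cdk6 was higher (2.17) and Ccnd2 lower (-1.34). Of 7 inhibitors of cyclin-dependent kinases, 3 were higher and 1 lower, Cdkn1c (p57) standing at -4.08 and Cdkn1a (p21) at 1.57. Of 10 genes tied to quiescence, 5 were higher and 3 lower, Btg2 at 2.36 being the highest.

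The maternal diets were compared on the number of rich cells in each gate. Member-rich macrophages had a mean share of 26.4% in high_fibre and 25.6% in control_diet, a log2 ratio of 0.09 ± 0.33 (SE; 95% interval -0.61 to 0.78, edgeR adjusted p = 0.80 over 7 classes of cells). Member-rich endothelial cells had 2.14% in high_fibre and 2.87% in control_diet, a log2 ratio of -0.44 ± 0.38 (-1.24 to 0.37, edgeR adjusted p = 0.80). The 2 high_fibre libraries lay below both control_diet libraries there, and an exact two-sided permutation test gave p = 0.33, the smallest that 2 against 2 allows. With a limit of 5 UMIs in place of 10 the endothelial ratio was -0.69 and passed (edgeR adjusted p = 0.0012), and with cells thinned to 2000 UMIs it was 0.34, of the opposite sign. In fibroblasts (-0.17), B cells (-0.27), T cells (-0.35), cells of several gates (-0.28) and ungated cells (-0.22) no ratio passed either.

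G2/M-rich macrophages made up 4.02% in high_fibre and 3.38% in control_diet, a log2 ratio of 0.32 ± 0.86 (95% interval -1.53 to 2.18, edgeR adjusted p = 0.85). G2/M-rich endothelial cells made up 0.60% and 0.72%, a ratio of -0.28 ± 0.80 (-1.99 to 1.43, edgeR adjusted p = 0.85). The intervals include changes of more than 2-fold either way. For all kept cells the member-rich share was 7.19% and 7.02% in high_fibre against 6.39% and 6.53% in control_diet (exact two-sided permutation p = 0.33). The G2/M-rich share was 0.89% and 1.27% against 1.17% and 0.94%, so the groups overlapped for G2/M-rich cells and not for member-rich ones. The member-rich groups did overlap with cells thinned to 2000 UMIs (4.52% and 3.77% against 4.22% and 2.48%) and with a limit of 20 UMIs (1.82% and 2.38% against 1.85% and 1.80%). Macrophages numbered 971 of 5980 and 1169 of 7380 kept cells in high_fibre and 751 of 5663 and 268 of 2558 in control_diet, and the part of this in the pooled share was not tested.

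No member passed the diet comparison in any gate. In the edgeR fits, 0 of 38 members were called in macrophages (0% of all genes called), 0 of 36 in endothelial cells (0.0978%), 0 of 38 in fibroblasts (0.00727%), 0 of 10 in B cells (0.0274%), 0 of 26 in T cells (0.0652%) and 0 of 38 in all kept cells (0%). At an unadjusted edgeR p under 0.05 the counts were 9, 6, 0, 0, 2 and 9 members. Over all genes tested they were 493 of 11524, 766 of 12271, 885 of 13746, 226 of 7291, 234 of 6135 and 1166 of 15806. DESeq2 called 0 members in the 5 gates and 1 in all kept cells, Ube2c (-0.96, adjusted p = 0.00096). In all kept cells DESeq2 called 64 genes higher and 27 lower. The median log2 ratio of the tested members was 0.07 in macrophages, -0.30 in endothelial cells, -0.18 in fibroblasts, -0.10 in B cells, -0.46 in T cells and 0.00 in all kept cells, against 0.00 for all genes in each of these fits.

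**Figure D4:**
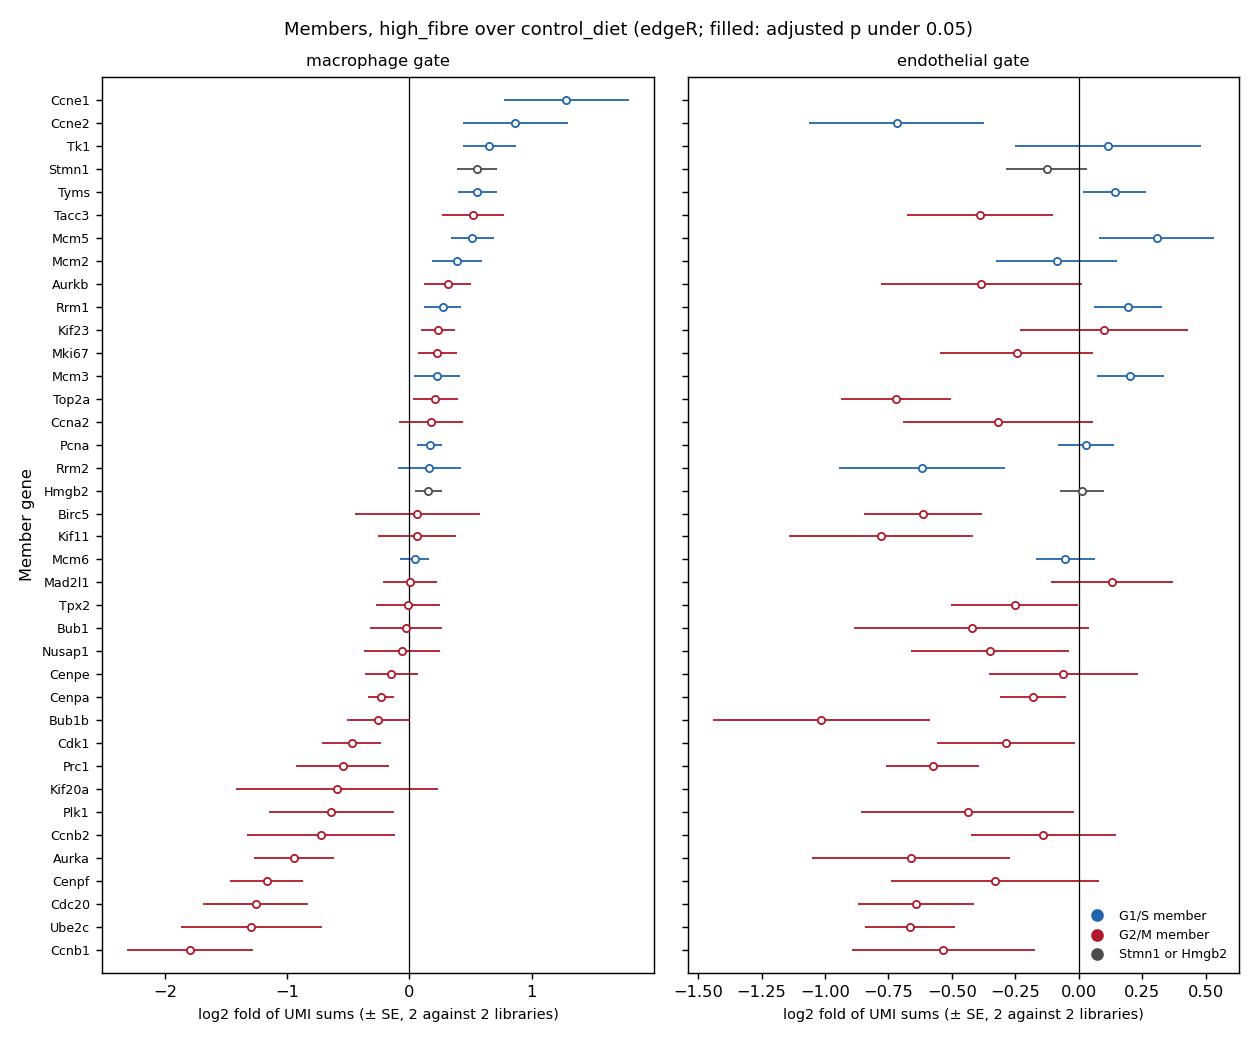
Log2 ratio of high_fibre over control_diet for each member in macrophages and in endothelial cells, as fitted by edgeR, with bars of 1 SE. No member passed the adjusted threshold. In macrophages all 11 G1/S genes lie above 0, and in endothelial cells 22 of 24 G2/M genes lie below 0. Genes of a wave are counted in the same cells, so they are not separate observations.

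In macrophages no gene of either wave passed the test, and the waves were not tested against each other. Genes of a wave are counted in the same cells, so their directions are not separate observations. All 11 G1/S genes had a log2 ratio above 0 (median 0.39), and 16 of 25 G2/M genes were below it and 9 above (median -0.15). Of the further S phase genes 25 of 26 were above 0 (median 0.36). The further G2/M genes did not follow the G2/M members, since 25 of 43 were above 0 (median 0.09). Cenpf, a kinetochore protein, stood at 9.02 and 18.1 CPM in high_fibre and 29.1 and 32.6 in control_diet (log2 -1.17 ± 0.30, edgeR adjusted p = 1.00). Ccnb1 (-1.79 ± 0.51) had the largest ratio, its 2 high_fibre libraries lying at 1.69 and 4.12 and its control_diet libraries at 6.84 and 14.7. Ube2c, at 11.0 and 23.9 against 29.6 and 59.0, and Cdc20, at 3.76 and 7.01 against 8.74 and 18.4, lay on the same side. How many of all genes separate the diet groups in this way was not counted. With 2 against 2 libraries, such separation has an exact two-sided permutation p of 0.33 and by itself sets no gene apart.

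These 4 genes rested on few cells, since the 119 G2/M-rich macrophages (29, 59, 20 and 11 per library) held 93.8% of Cenpf, 96.8% of Ccnb1, 97.4% of Ube2c and 82.9% of Cdc20 UMIs in the gate. Within G2/M-rich macrophages Ccnb1 stood at 26.5, 45.9, 132 and 219 CPM and Mki67 at 724, 611, 904 and 537. With no filter on low counts, edgeR called Cenpf, Cdc20 and Ccnb1 lower and Stmn1 higher, among 54 genes called higher and 23 lower. Without high_fibre 2 the log2 ratio of Cenpf was -1.70, the lone high_fibre library being assumed to vary like the control_diet pair. On the other side, Tyms (0.56 ± 0.16), Tk1 (0.66 ± 0.21), Mcm5 (0.51 ± 0.18), Ccne1 (1.28 ± 0.51) and Stmn1 (0.56 ± 0.16) had unadjusted edgeR p-values of 0.0079 to 0.036, with an adjusted p of 1.00. Mki67 (0.23), Top2a (0.21), Cdk1 (-0.47), Birc5 (0.07), Pcna (0.17), Rrm2 (0.16) and Hmgb2 (0.15) had unadjusted p-values above these.

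In endothelial cells the G2/M genes lay mostly below 0. Of 24 tested, 22 had a ratio below 0 (median -0.39), against 4 of 10 G1/S genes (median 0.07). Of 39 further G2/M genes, 31 were below 0 (median -0.21). The 43 G2/M-rich endothelial cells (12, 10, 12 and 9 per library) held 74.0% of the gate's UMIs of G2/M members. These genes are therefore not separate observations. Ube2c stood at 9.75 and 10.0 CPM in high_fibre and 17.5 and 13.4 in control_diet (-0.67 ± 0.18, edgeR adjusted p = 0.30). Top2a stood at 14.0 and 8.97 against 17.5 and 19.8 (-0.72 ± 0.22, edgeR adjusted p = 0.47), and Prc1 at 9.09 and 7.93 against 13.4 and 11.6 (-0.58 ± 0.18, edgeR adjusted p = 0.48). Their groups did not overlap, but how many of all genes separate the groups was not counted. Full separation of 2 against 2 libraries gives an exact two-sided permutation p of 0.33, so it sets no gene apart by itself. The log2 ratio of Ube2c was -0.85 without control_diet 2 and that of Top2a was -0.80 without control_diet 1. Each of these fits has 1 control_diet library left, which is assumed to vary like the high_fibre pair. Red cell genes summed to 6848 CPM in the endothelial gate of high_fibre 1 and to 1222 to 1740 in the others, and their part was not tested.

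In T cells, single libraries decided the values. Without control_diet 2 the log2 ratio of Stmn1 was -1.45. Without control_diet 1 it was 3.77, and that of Mki67 was 8.25, against a control_diet library whose Mki67 count was 0. Both fits have 1 control_diet library, assumed to vary like the high_fibre pair, and they gave opposite directions for Stmn1. Of the 26 tested members 21 had a ratio below 0 with all libraries. In fibroblasts 28 of 38 and in B cells 5 of 10 members were below 0.

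The G2/M-rich cells carried further features that their choice did not use. Values here describe cells picked by their G2/M UMIs, so they were not tested. In macrophages, each of 26 further S phase genes and 37 of 38 measured further G2/M genes stood more than 2-fold above the macrophages below the member-rich limit (median log2 3.98 and 5.84). In endothelial cells these counts were 25 of 25 and 37 of 38, and in fibroblasts 24 of 24 and 39 of 40. The exception in macrophages was Pttg1 (securin), at 30.4 CPM against 45.6. It was also the exception in endothelial cells, at 42.4 against 88.8. Pclaf, a partner of Pcna, stood at 415 CPM in G2/M-rich macrophages and 0.48 in the macrophages below the limit.

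**Figure D5:**
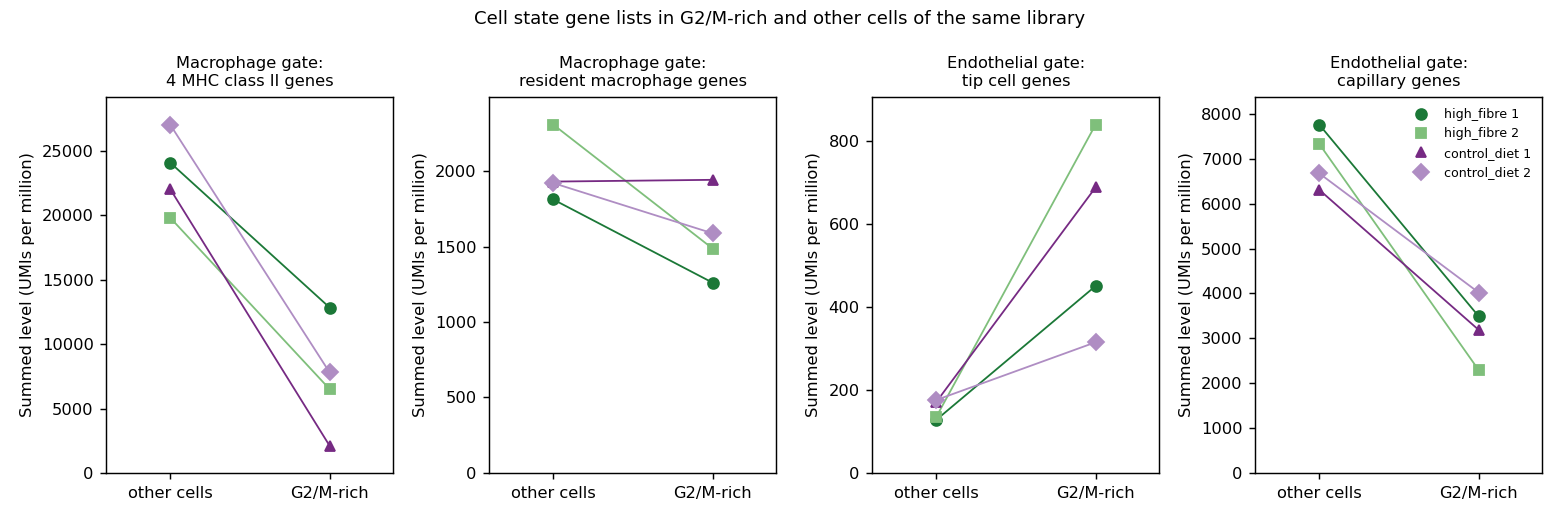
Summed CPM of genes of cell state in G2/M-rich cells and in all cells below the member-rich limit, by library, for macrophages (MHC class II and resident genes) and endothelial cells (tip and capillary genes). In each of the 4 libraries the MHC class II and capillary sums are lower, and the tip sum higher, in G2/M-rich cells. The endothelial values rest on 12, 10, 12 and 9 G2/M-rich cells per library.

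The G2/M-rich macrophages had lower sums of antigen presentation genes. These sums rest on 119 G2/M-rich cells over the libraries, the fewest of them in control_diet 2. Their median depth was 20318 UMIs, against 9442 in the macrophages below the member-rich limit, and the part of depth was not tested. The MHC class II genes H2-Aa, H2-Ab1 and H2-Eb1 and their chaperone gene Cd74 summed to 12845, 6508, 2109 and 7806 CPM in G2/M-rich macrophages and to 24106, 19829, 22058 and 27060 in the macrophages below the member-rich limit. That is lower in 4 of 4 libraries, with a mean log2 difference of -1.92 ± 1.05 (SD over libraries). The resident macrophage genes Timd4, Lyve1, Folr2, Cd163 and Vsig4 summed to 1260, 1486, 1942 and 1587 against 1812, 2308, 1930 and 1921 (mean -0.36 ± 0.29, lower in 3 of 4). The general macrophage markers differed by -0.23 ± 0.05.

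The G2/M-rich endothelial cells had higher sums of genes of sprouting tips and lower sums of genes of capillaries. These sums rest on 12, 10, 12 and 9 G2/M-rich cells per library. Their median depth was 14913 UMIs, against 5215.5 in the endothelial cells below the member-rich limit. Apln, Kit, Mest, Esm1 and Pgf summed to 451, 841, 689 and 315 CPM in G2/M-rich endothelial cells and to 128, 134, 171 and 176 in endothelial cells below the member-rich limit (mean log2 1.83 ± 0.75, higher in 4 of 4). The capillary genes Car4, Rgcc, Gpihbp1, Cd36 and Lpl summed to 3490, 2292, 3187 and 4020 against 7764, 7335, 6310 and 6677 (-1.14 ± 0.40, lower in 4 of 4). The general endothelial markers differed by -0.41 ± 0.26. Macrophage markers were near the endothelial background in these cells, at 20.3 to 94.0 CPM.

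All 38 genes have a position in the GENCODE annotation of GRCm38, for example Mki67 at chr7:135689784-135716361 on the minus strand, Top2a at chr11:98992943-99024189 on the minus strand and Ccnb1 at chr13:100778650-100786570 on the minus strand. Of the 38, 17 overlap another annotated gene, 6 on the same strand, such as Top2a and Stmn1 with small or predicted genes, and 14 on the opposite strand. Whether counting used the strand is not given in the sources used here, so reads of overlapping genes may be shared.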

How the data were processed

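Per the submitters' processing notes, the deposited counts were made with Cell Ranger 3.1.0 and the mm10 build. The authors deposited, for each of the 4 libraries, whole-number UMI counts per gene and barcode, with no normalization. The barcode with the fewest UMIs held 500. Barcodes and gates were used as described above, in Python 3.11.15 (numpy 2.4.6, scipy 1.17.1, pandas 2.3.3, scikit-learn 1.9.0, matplotlib 3.10.9). Counts were summed per library and gate and tested in R 4.3.3 with edgeR 4.0.16 (quasi-likelihood, TMM, robust, filterByExpr at a minimum count of 10), which was first tested on simulated data. Adjusted p-values are Benjamini-Hochberg over all genes of a fit, with a threshold of 0.05. DESeq2 1.42.0 was the other tool. Cell numbers were tested in edgeR with the gate's cells as offset. CPM (counts-per-million) values are counts over all UMIs of the gate and library. Shares carry exact Clopper-Pearson 95% intervals, and a share of 0 carries the limit of 3 counts.

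Doublets were scored within each library from 2 simulated doublets per barcode, 30 neighbours and 2000 variable genes (seed 20). The highest 0.8% per 1000 barcodes were marked, and were left out only as an alternative. Full values are given for Mki67, Top2a, Ccnb1, Cdk1, Birc5, Mcm5, Pcna, Rrm2, Stmn1 and Hmgb2 and for any member called between diets, and for other lists up to 4 genes of the largest log2 fold. Others named were chosen after their values were seen, and so were the G2/M-rich class and the count of a shared barcode in 1 library only. The members, gates and lists were chosen with earlier results of these data known.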

Additional observations from a re-analysis of the deposited data

How the results depend on the processing

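Shares, cells by diet, member counts and single members were recomputed under the alternatives. The cells by diet kept direction and side of the threshold in 186 settings, reversed in 25 and were stronger in 1. Member counts kept theirs in 156, with 10 stronger and 2 weaker. The shares stayed within 1 SD in 130 and moved further in 32. Single members between gates kept theirs in 437, with 15 stronger and 9 weaker. By diet single members kept theirs in 336, with 12 reversed and 12 stronger. The member-rich share followed its limit. At 5 UMIs it was 61.5% in macrophages, 14.5% in endothelial cells, 16.7% in fibroblasts, 29.1% in B cells, 50.1% in T cells and 24.9% in all cells. At 20 UMIs it was 8.13%, 0.93%, 0.38%, 0.52%, 3.18% and 1.97%, and without Stmn1 and Hmgb2 9.08%, 1.11%, 0.59%, 0.92%, 2.58% and 2.34%. Thinned to 2000 UMIs it was 9.58% in macrophages, 0.42% in fibroblasts, 10.3% in B cells and 3.75% in all cells. At most 10% mitochondrial UMIs gave 3.07% in endothelial cells and 7.57% in all, and leaving out the highest doublet scores 6.09% in all. Depth limits the shares: among macrophages of 1000 to 4999 UMIs 2.08% were member-rich.

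The log2 ratios of member-rich cells by diet changed sign or call as follows, the cause not being tested: macrophages -0.055 and endothelial cells -0.69 (called) at 5 UMIs, endothelial cells 0.040 and cells of several gates 0.12 at 20 UMIs, endothelial cells 0.34 and T cells 0.0091 when thinned, fibroblasts 0.062 without Stmn1 and Hmgb2, and T cells 0.0025 at 10% mitochondrial UMIs. For G2/M-rich cells, fibroblasts gave 0.052 without doublets and 0.36 from mean shares, T cells 0.00048 thinned and 0.037 at 10% mitochondrial UMIs, and cells of several gates 0.31 at 5 UMIs and 1.06 without doublets. Leaving out 1 library at a time moved the member-rich ratios from -0.26 to 0.44 (macrophages), -0.67 to -0.21 (endothelial cells), -0.70 to 0.18 (fibroblasts), -1.96 to 0.49 (B cells), -0.58 to 0.53 (T cells), -0.40 to -0.05 (several gates) and -0.36 to 0.038 (ungated). It moved the G2/M-rich ratios from -0.067 to 0.69, -0.68 to 0.099, -0.63 to -0.18, -2.11 to -1.07, -2.08 to -0.07, -1.75 to 0.11 and -2.09 to 0.096 in the same order.

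Members called by diet numbered 4 in macrophages, 2 in endothelial cells and 1 in all cells with no filter on low counts, and 1 in all cells with DESeq2. Without single libraries, where the lone library of a group is assumed to vary like the other group, they numbered 0 to 1 in macrophages and endothelial cells and 0 to 8 in T cells. Members higher numbered 31 to 35 in macrophages over endothelial cells, 29 to 38 in macrophages over fibroblasts and 27 to 30 in endothelial cells over fibroblasts. Members lower in B than T cells numbered 12 to 20, and 5 without the library block. Dropping the filter moved the median of all genes to -0.18 in macrophages over fibroblasts and -0.13 in endothelial cells over fibroblasts. Over single libraries left out, ratios by diet crossed 0 in macrophages for Top2a (-0.071 to 0.44), Birc5 (-0.66 to 0.53) and Rrm2 (-0.072 to 0.57). In endothelial cells they did for Mki67 (-0.61 to 0.28), Cdk1 (-0.69 to 0.072), Pcna (-0.076 to 0.13), Stmn1 (-0.37 to 0.088) and Hmgb2 (-0.021 to 0.036). Birc5 stood at -0.0018 in macrophages with gate limits lowered, and Hmgb2 at -0.012 in endothelial cells without doublets. Over all genes, edgeR called 12 by diet in endothelial cells and 1 in fibroblasts, against 203 and 310 with no filter and 24 and 47 with DESeq2.

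The labels number the repeats 1 and 2 in both groups, with nothing that ties equal numbers. Deviations of equally numbered libraries correlated at 0.0226 to 0.205 across genes, from only 2 pairs. With the repeat number as a block, 4 members were called lower in macrophages (Cenpf -1.24, Ube2c -1.36, Cdc20 -1.31 and Ccnb1 -1.90), among 50 genes called, 35 higher and 15 lower, against 0 without it, and Birc5 stood at -0.066. Over all genes the block gave 7 calls in endothelial cells, 4 in fibroblasts, 51 in B cells and 10 in T cells, against 12, 1, 2 and 4 without it. Under the block edgeR called 0 members in the 4 other gates, and the member-rich ratio was 0.10 in macrophages and -0.43 in endothelial cells.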

Other observations

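Beyond the 2 waves, regulators of the cycle were compared between G2/M-rich cells and the cells of the same gate below the member-rich limit. Of 7 genes for inhibitors of cyclin-dependent kinases, 6 were measured in macrophages and in endothelial cells. In macrophages 3 of the 6 stood more than 2-fold higher in G2/M-rich cells. Cdkn2c (p18), which binds Cdk4 and Cdk6, stood at 149 CPM against 26.3, and Cdkn2d (p19) at 83.9 against 19.6. Cdkn1a (p21), a target of p53, stood at 823 against 476, within 2-fold. In endothelial cells Cdkn2c stood at 215 against 13.5, while Cdkn1c (p57), a mark of cells that have left the cycle, stood at 137 against 631. The pocket protein gene Rbl1 (p107) stood at 64.4 against 7.91 in macrophages. The G1 cyclin Ccnd1 stood at 182 against 151 in macrophages, within 2-fold.

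Genes tied to quiescence did not stand on 1 side: of 10, 3 in macrophages and 4 in endothelial cells stood more than 2-fold higher in G2/M-rich cells, and 0 and 1 more than 2-fold lower. Those higher in both gates were Lin9 and Lin54, which encode subunits of the MuvB core, and Fzr1, an activator of the anaphase-promoting complex. In macrophages Lin9 stood at 32.0 CPM against 11.0, Lin54 at 35.2 against 13.8 and Fzr1 at 42.8 against 18.8. In endothelial cells Lin9 stood at 45.3 against 8.53, Lin54 at 49.7 against 17.7, Fzr1 at 67.2 against 14.6 and Lin52, another MuvB subunit, at 10.2 against 4.71. Klf2, a transcription factor of quiescent endothelium and leukocytes, stood at 595 against 1186 CPM in macrophages and 931 against 1605 in endothelial cells. Klf4 stood at 241 against 455 in macrophages and 251 against 690 in endothelial cells. These cells were chosen by their G2/M UMIs, so the values are descriptions with no test.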
